A study of Mus musculus with 8 samples.

Results

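Kupffer cell identity genes were examined in RNA sequencing of mouse livers after ischemia-reperfusion (I/R), in which blood flow to part of the liver is stopped and then restored. The 10 genes are Clec4f, Timd4, Cd5l, Vsig4, C1qa, C1qb, C1qc, Marco, Cd163 and Folr2. They were chosen by name because they mark the resident macrophages of the liver, and each has 1 row among the 54532 genes listed by the authors. All 10 were among the 16645 genes that were tested, those with a mean of at least 0.1 FPKM (fragments scaled to gene length and sequencing depth) over the 8 livers.

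The series compared 4 METTL3-HKD mice with 4 METTL3-Flox mice. METTL3 is the methyltransferase that places m6A, a methyl mark, on mRNA. METTL3-HKD mice are METTL3 flox/-; Alb-iCre, heterozygous animals in which iCre driven by the albumin promoter acts on a METTL3 allele with a floxed exon in hepatocytes, and METTL3-Flox mice are flox/flox littermates without Alb-iCre. All 8 livers were ischemic for 1 h and then reperfused for 6 h, and no sham-operated liver was analysed, so a difference between genotypes at this time cannot be set against a liver without injury. The age and sex of these 8 mice are not given in the sources used here. Albumin-driven iCre acts in hepatocytes, but the sources used here do not define whether the minus allele is wild type or deleted, so whether macrophages of METTL3-HKD mice carry a reduced dose of Mettl3 is not known.

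Kupffer cells are macrophages that line the liver sinusoids and clear particles, bacteria, dying cells and old red blood cells from portal blood. Most are seeded before birth and renew themselves in place. Their identity genes are switched on by the transcription factors PU.1, ID3 and LXR-alpha together with signals from neighbouring stellate, endothelial and liver cells. After injury, resident cells can be lost and monocyte-derived cells can enter, and these newcomers gain genes such as Timd4 late or only in part. In whole liver, fewer Kupffer cells and less RNA of these genes per cell cannot be told apart.

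The libraries held 15861245 to 18434488 reads on genes. Alb, the plasma albumin gene that defines hepatocytes, lay between 15100 and 22100 FPKM. Mettl3 itself was 1.33 ± 0.181 FPKM in METTL3-HKD and 1.5 ± 0.282 FPKM in METTL3-Flox livers (mean ± SD, n = 4), with overlapping groups and an adjusted p of 0.556 by limma, so whole-liver RNA does not separate the genotypes by the targeted gene. This FPKM covers all exons of the gene, so it is not a measure of the floxed exon alone. The paper reports a loss of METTL3 in the liver of METTL3-HKD mice from an experiment of its own. All 10 Kupffer cell genes were detected in all 8 livers, from 12 reads for Folr2 in the lowest METTL3-HKD liver up to 4320 reads for Cd5l in the highest METTL3-Flox liver.

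The promoters of a few of these genes are shown, and the capitals let a reader see where sequence that PU.1 and its partners can bind lies near the start site. Whether such sites have a part in the levels of the genes in these livers was not tested. Of the 10 genes, 9 matched an entry in the RefSeq promoter table for GRCm38.p6, which gives 250 bases before and 50 bases after the start of a gene. Capitals mark the ETS core GGAAGT, the PU.1 core GAGGAA and the composite ETS-IRF element (GGAA, any 2 bases, then GAAA) on either strand, and these motifs can overlap, since GGAAGT can be the start of the composite element and both cores share GGAA. The motifs were chosen after the promoters had been seen. Timd4 (chr11:46810549-46810848, plus strand) and Folr2 (chr7:101857141-101857440, minus strand) are shown as the promoters with the composite element, Vsig4 (chrX:96293389-96293688, minus strand) as the one with most bases in capitals, and C1qb (chr4:136886151-136886450, minus strand) for the complement C1q genes.
Timd4: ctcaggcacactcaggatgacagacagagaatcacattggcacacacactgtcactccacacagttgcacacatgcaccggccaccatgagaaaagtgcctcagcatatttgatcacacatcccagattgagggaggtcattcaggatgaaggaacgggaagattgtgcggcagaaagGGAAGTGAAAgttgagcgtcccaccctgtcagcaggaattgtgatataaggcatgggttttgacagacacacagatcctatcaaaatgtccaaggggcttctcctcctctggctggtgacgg
Folr2: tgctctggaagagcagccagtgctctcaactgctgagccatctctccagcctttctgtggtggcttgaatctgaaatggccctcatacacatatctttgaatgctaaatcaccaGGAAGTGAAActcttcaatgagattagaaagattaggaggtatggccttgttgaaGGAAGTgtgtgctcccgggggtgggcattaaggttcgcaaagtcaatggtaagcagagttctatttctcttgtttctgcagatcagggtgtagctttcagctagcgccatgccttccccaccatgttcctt
Vsig4: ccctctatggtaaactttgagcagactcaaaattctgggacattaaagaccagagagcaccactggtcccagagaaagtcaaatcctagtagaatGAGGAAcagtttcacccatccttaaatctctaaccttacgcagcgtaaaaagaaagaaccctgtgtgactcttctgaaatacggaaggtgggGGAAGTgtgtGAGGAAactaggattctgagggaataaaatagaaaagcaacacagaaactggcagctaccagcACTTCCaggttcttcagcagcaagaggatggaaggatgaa
C1qb: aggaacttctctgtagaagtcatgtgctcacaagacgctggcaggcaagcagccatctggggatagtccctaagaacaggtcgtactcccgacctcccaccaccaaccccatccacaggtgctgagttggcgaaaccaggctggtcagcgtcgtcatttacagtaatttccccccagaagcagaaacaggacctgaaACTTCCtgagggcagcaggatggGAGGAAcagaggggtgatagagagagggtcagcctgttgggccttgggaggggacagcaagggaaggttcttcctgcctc

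The composite element was present in 2 of the 9 promoters and in 2.72% of all 32851 promoters in the table. GGAAGT was found in 6 of the 9 (C1qb, C1qc, Clec4f, Folr2, Timd4 and Vsig4) against 23.8% of all, and GAGGAA in 5 of the 9 (C1qb, C1qc, Cd5l, Marco and Vsig4) against 28.3% of all. The MAF site core TGCTGA, also searched on both strands, was present in 6 of the 9 and in 19.5% of all promoters. The LXR direct repeat, AGGTCA followed after any 4 bases by AGGTCA again, was in 0 of the 9 and in 0.0152% of all. These matches describe letters in a short window and are not evidence of binding.

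Kupffer cell identity genes were lower in METTL3-HKD than in METTL3-Flox livers. The mean level was lower for 10 of 10 genes, and 7 of them (Clec4f, Timd4, Cd5l, Vsig4, C1qc, Cd163 and Folr2) passed the test at an adjusted p under 0.05 by limma on log2(FPKM + 0.1), adjusted over all genes tested. Among all tested genes, 6.63% were called lower and 9.05% higher. C1qa, C1qb and Marco were not called, and 0 of the 10 were called higher. At an unadjusted p under 0.05, 9 of the 10 were lower, against 15.1% of all tested genes. For 6 of the 10 genes every METTL3-HKD liver lay below every METTL3-Flox liver, a separation seen in 9.95% of tested genes. The median log2 fold change was -0.97 over the 10 genes and -0.00 over all tested genes, and with a fold threshold of log2 1 added, 4 of the 10 were called lower (Clec4f, Timd4, Cd5l and Folr2) against 1.52% of all tested genes.

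**Figure D1:**
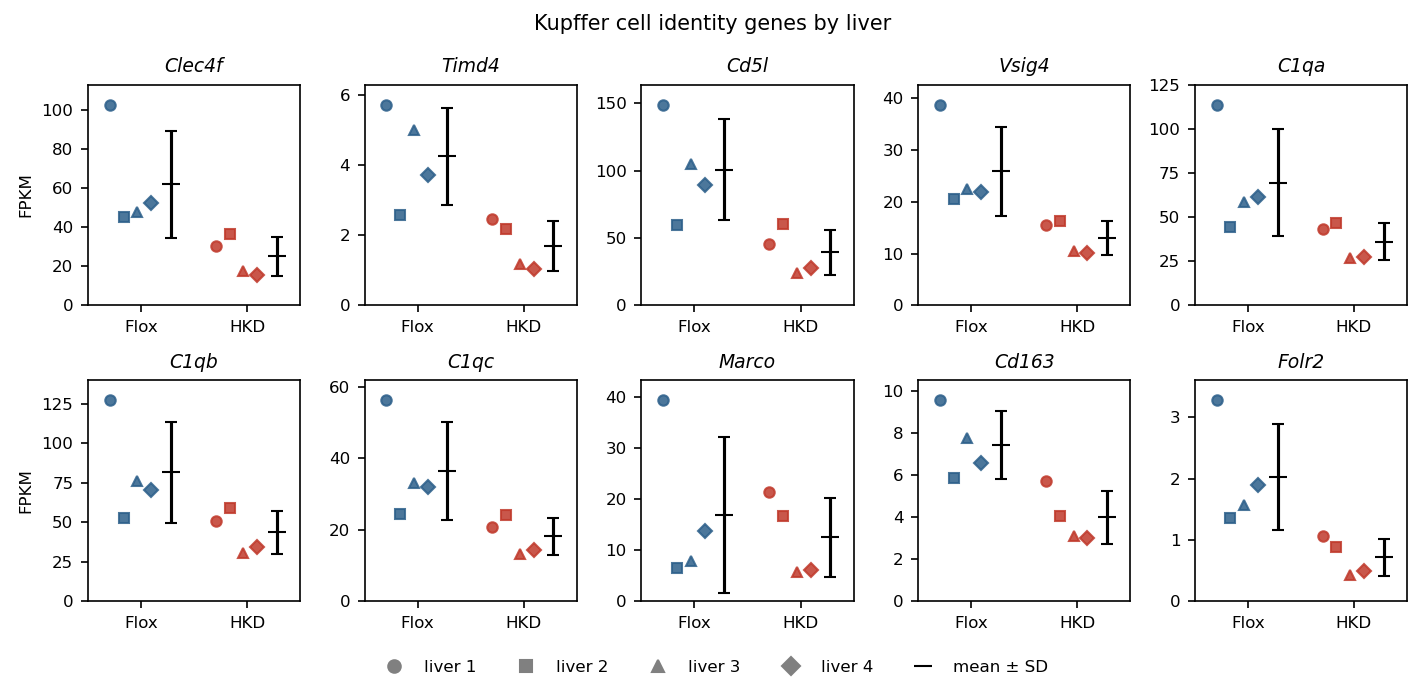
FPKM of each Kupffer cell identity gene (y axis, from 0, one scale per gene) in the 4 METTL3-Flox livers (blue) and the 4 METTL3-HKD livers (red). Each point is 1 liver, the symbol gives its number within the group, and the bar is the mean ± SD. METTL3-Flox liver 1 is the highest point in all 10 panels, and METTL3-HKD livers 3 and 4 lie below METTL3-HKD livers 1 and 2 in all 10.

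Clec4f (ENSMUSG00000014542, chr6:83644542-83656187 of GRCm38, minus strand, 7 exon blocks when its transcripts are merged) encodes a C-type lectin that binds galactose-type sugars and in mice is the marker most restricted to Kupffer cells. In METTL3-HKD livers 1 to 4 it was at 30.4, 36.7, 17.8 and 15.5 FPKM, and in METTL3-Flox livers 1 to 4 at 103, 45.1, 48.0 and 52.5 FPKM. The groups did not overlap, although METTL3-HKD liver 2 came near the lowest METTL3-Flox liver and METTL3-Flox liver 1 stood well above the others. The level was 2.48-fold lower in METTL3-HKD livers, a log2 fold change of -1.31 (SE 0.338, adjusted p = 0.0337 by limma; exact permutation p = 0.0286, two-sided, the smallest that 4 against 4 livers allow).

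Timd4 (ENSMUSG00000055546, chr11:46810800-46844332 of GRCm38, plus strand, 9 exon blocks) encodes TIM-4, a receptor for phosphatidylserine on dying cells that is typical of long-lived resident macrophages. METTL3-HKD livers 1 to 4 held 2.45, 2.17, 1.17 and 1.02 FPKM, while METTL3-Flox livers 1 to 4 held 5.73, 2.59, 4.99 and 3.72 FPKM. METTL3-Flox liver 2 was the nearest control, only just above METTL3-HKD liver 1. The log2 fold change was -1.30 (SE 0.327, adjusted p = 0.0303 by limma; exact permutation p = 0.0286), which is 2.47-fold lower.

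Cd5l (ENSMUSG00000015854, chr3:87357881-87371073 of GRCm38, plus strand, 6 exon blocks) encodes AIM, a protein secreted by tissue macrophages that is a known LXR target and acts on lipid handling and on debris. Its levels in METTL3-HKD livers 1 to 4 were 45.4, 60.2, 24.1 and 27.9 FPKM, and in METTL3-Flox livers 1 to 4 they were 149, 59.5, 105 and 89.2 FPKM. Here the groups touched, because METTL3-HKD liver 2 was slightly above METTL3-Flox liver 2. The gene was 2.58-fold lower in METTL3-HKD livers (log2 fold change -1.37, SE 0.342, adjusted p = 0.0302 by limma; exact permutation p = 0.0571).

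Folr2 (ENSMUSG00000032725, chr7:101839988-101857194 of GRCm38, minus strand, 8 exon blocks), the folate receptor beta gene of resident macrophages, had the lowest level of the 10. METTL3-HKD livers 1 to 4 were at 1.06, 0.875, 0.430 and 0.487 FPKM, and METTL3-Flox livers 1 to 4 at 3.28, 1.36, 1.57 and 1.89 FPKM. No METTL3-HKD liver reached the lowest METTL3-Flox liver. The log2 fold change was -1.39 (SE 0.331, adjusted p = 0.0263 by limma; exact permutation p = 0.0286), or 2.61-fold lower, and it was -0.80 with a pseudocount of 1 FPKM, which weighs on a gene of this level. These levels rest on 12 to 33 reads in METTL3-HKD and 34 to 72 reads in METTL3-Flox livers, and 975 exon bases of Folr2 are shared with Gm10602 on the opposite strand, a gene with a mean of 0.0664 FPKM. The other 9 genes share no exon bases with another annotated gene.

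Vsig4 (ENSMUSG00000044206, chrX:96247203-96293438 of GRCm38, minus strand, 7 exon blocks) encodes CRIg, a receptor with which Kupffer cells bind complement C3 fragments and catch bacteria from the blood. Its level in METTL3-HKD livers 1 to 4 was 15.5, 16.3, 10.4 and 10.1 FPKM, whereas METTL3-Flox livers 1 to 4 had 38.8, 20.6, 22.4 and 21.9 FPKM. METTL3-Flox livers 2, 3 and 4 lay close together, METTL3-Flox liver 1 lay far above them, and all 4 exceeded every METTL3-HKD liver. The log2 fold change was -0.96 (SE 0.238, adjusted p = 0.0291 by limma; exact permutation p = 0.0286).

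Cd163 (ENSMUSG00000008845, chr6:124304656-124330527 of GRCm38, plus strand, 16 exon blocks) is the scavenger receptor for haemoglobin bound to haptoglobin. METTL3-HKD livers 1 to 4 held 5.74, 4.07, 3.11 and 3.0 FPKM, and METTL3-Flox livers 1 to 4 held 9.56, 5.87, 7.77 and 6.57 FPKM. The groups were separate, with METTL3-HKD liver 1 just under METTL3-Flox liver 2. The log2 fold change was -0.91 (SE 0.225, adjusted p = 0.0292 by limma; exact permutation p = 0.0286).

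Marco (ENSMUSG00000026390, chr1:120474538-120505024 of GRCm38, minus strand, 17 exon blocks), a class A scavenger receptor with a collagen-like stalk that binds bacteria and particles, was not separated between the genotypes. METTL3-HKD livers 1 to 4 had 21.4, 16.7, 5.67 and 6.15 FPKM of Marco, and METTL3-Flox livers 1 to 4 had 39.4, 6.53, 7.93 and 13.8 FPKM. The groups overlapped broadly: METTL3-HKD livers 1 and 2 were above METTL3-Flox livers 2, 3 and 4. The level varied 3.78-fold within METTL3-HKD and 6.03-fold within METTL3-Flox livers, the widest ranges of the 10 genes, and the log2 fold change of -0.29 had a 95% interval from -1.69 to 1.11 (adjusted p = 0.786 by limma; exact permutation p = 0.743). The interval contains the fold changes of the other 9 genes. Its sign was not stable, since it became 0.24 without METTL3-Flox liver 1 and 0.01 without METTL3-HKD liver 3.

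C1qa, C1qb and C1qc encode the 3 chains of C1q, the recognition part of the classical complement pathway, which tissue macrophages produce in large amounts. The 3 genes lie side by side within 18675 bases of chromosome 4 (GRCm38, minus strand), from 136880129 to 136898803. For C1qa, METTL3-HKD livers 1 to 4 had 43.5, 46.8, 26.9 and 27.6 FPKM, and METTL3-Flox livers 1 to 4 had 114, 44.6, 58.9 and 61.3 FPKM. C1qb was at 50.7, 58.6, 30.2 and 34.0 FPKM in METTL3-HKD and at 127, 52.7, 75.9 and 70.4 FPKM in METTL3-Flox livers. For both genes METTL3-Flox liver 2 fell within the METTL3-HKD range, and neither was called: the log2 fold changes were -0.90 (SE 0.296) for C1qa and -0.89 (SE 0.292) for C1qb, with adjusted p-values by limma of 0.0709 and 0.0705. C1qc was at 20.8, 24.2, 13.3 and 14.3 FPKM in METTL3-HKD and at 56.2, 24.4, 33.1 and 31.9 FPKM in METTL3-Flox livers, and it was called, with a log2 fold change of -0.98 (SE 0.274, adjusted p = 0.0436 by limma). Its groups did not overlap, but METTL3-Flox liver 2 exceeded METTL3-HKD liver 2 by far less than the spread within either group. A call for C1qc and none for its neighbours is not a difference between the chains, which was not tested.

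The proportions of the 3 chains stayed within narrow ranges while their levels ranged widely. The ratio of C1qa to C1qb in FPKM was 0.799 to 0.893 in METTL3-HKD and 0.776 to 0.894 in METTL3-Flox livers. C1qc over C1qb was 0.411 to 0.441 in METTL3-HKD and 0.437 to 0.463 in METTL3-Flox livers. C1qa was thus always somewhat under C1qb, and C1qc always well under both.

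By level per gene length, the order in METTL3-Flox livers was Cd5l (mean 101 FPKM), C1qb (81.5), C1qa (69.6), Clec4f (62.2), C1qc (36.4), Vsig4 (25.9), Marco (16.9), Cd163 (7.44), Timd4 (4.26) and Folr2 (2.03 FPKM). METTL3-HKD livers had the same order of mean FPKM except that C1qb (43.4 FPKM) stood above Cd5l (39.4 FPKM). Apart from Cd163 and Timd4, whose ranges were separate in both groups, every pair of neighbours had overlapping ranges of FPKM over the 4 livers of each group.

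**Figure D2:**
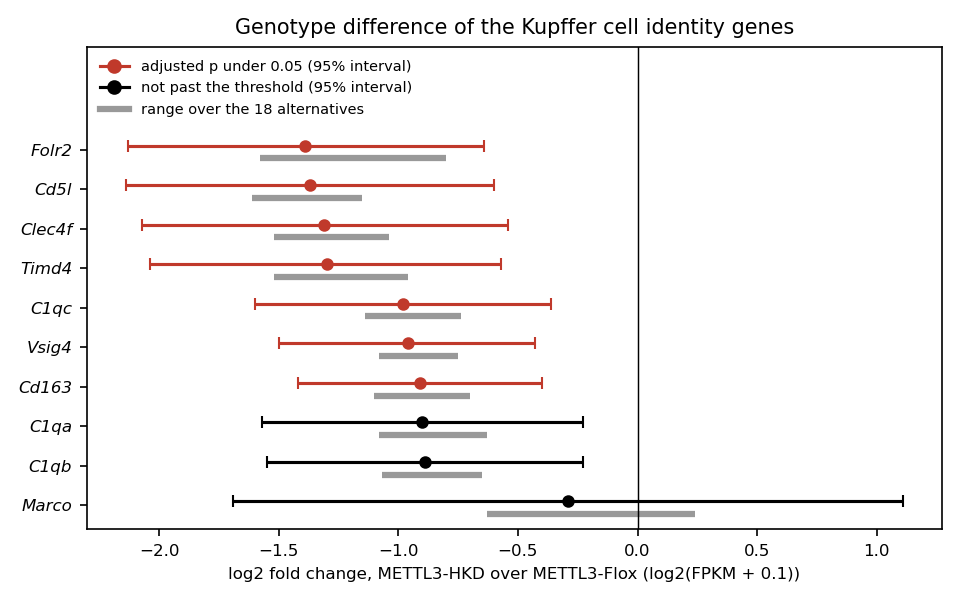
Log2 fold change of each gene, METTL3-HKD over METTL3-Flox, on log2(FPKM + 0.1) (x axis). Points and whiskers are the limma estimate and its 95% interval, red where the adjusted p is under 0.05, and the grey bar below each point spans the estimates under 18 other settings. The 7 red intervals lie below 0, those of C1qa and C1qb do too without passing the adjusted threshold, and the grey bar of Marco alone crosses 0.

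The livers within a genotype differed in the same way for gene after gene. METTL3-Flox liver 1 was the highest of the 8 livers for 10 of 10 genes, METTL3-HKD livers 3 and 4 lay below METTL3-HKD livers 1 and 2 for 10 of 10, and the lowest liver was METTL3-HKD liver 3 for 6 genes and METTL3-HKD liver 4 for 4. The deviations of each gene from its group means followed the mean of the other 9 with r from 0.873 (Cd163) to 0.983 (C1qa) over the 8 livers. These values describe a shared spread, in which the 10 genes are not independent measurements. Outside the 10, among genes averaging 1 FPKM or more, those with the most similar deviations were Rnf130 (r = 0.993), Ifi30 (0.987), Prkrip1 (0.984), Polr1d (0.982) and Tuba1c (0.98). None of these 5 was called between the genotypes, with adjusted p-values by limma from 0.0681 to 0.542. They were picked as the highest of many genes over only 8 livers, so r values this high can come from the picking alone. Whether they follow Kupffer cells was not tested.

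The calls changed more than the fold changes when a liver was left out. Leaving out METTL3-HKD liver 4, METTL3-Flox liver 3 or METTL3-Flox liver 4 left 0 of the 10 genes called by limma, while the median log2 fold change of the 10 was -0.86, -1.01 and -1.02 in these fits and the share of all tested genes called lower was 4.51%, 2.13% and 3.35%. In each of them, 9 of the 10 genes had an unadjusted p under 0.05, against 14.0%, 12.6% and 13.7% of all tested genes. Folr2 alone was called without METTL3-HKD liver 3 (6.89% of all tested genes, median of the 10 genes -0.85), Folr2 and Vsig4 without METTL3-Flox liver 1 (6.33%, median -0.77), and 4 genes without METTL3-HKD liver 1 (2.87%, median -1.08). Voom on rebuilt reads, run on all 8 livers, called 7 of the 10, against 7.22% of all tested genes called lower. Direction was steadier than the calls: the log2 fold change of the 9 genes other than Marco was negative under all 18 alternatives.

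The scaling between livers mattered as well. The deposited FPKM were already scaled between livers by the authors. The library size behind them, divided by the reads on genes, was 1.17, 1.16, 1.02 and 1.01 in METTL3-HKD livers 1 to 4. In METTL3-Flox livers 1 to 4 it was 0.84, 0.936, 0.9585 and 1.01. A lower ratio gives a higher FPKM for the same share of reads. When each liver was scaled to the same number of reads on genes, the median log2 fold change of all tested genes moved to 0.20 and that of the 10 genes to -0.75, which is -0.95 relative to all genes. Folr2 was then the only one of the 10 called (adjusted p = 0.046 by limma), against 2.24% of all tested genes, 2 of 10 genes had groups that did not overlap, against 3.54% of all tested genes, and the calls over all genes split into 2310 higher and 374 lower, against 1506 and 1104 with the deposited scaling.

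Levels were next set against genes that all macrophages share. The geometric mean of 12 pan-macrophage genes (Adgre1, Csf1r, Cd68, Mertk, Fcgr1, Lgmn, Aif1, Tyrobp, Fcer1g, Laptm5, Ctss and Mpeg1) was 12.9 ± 5.03 FPKM in METTL3-HKD and 13.4 ± 2.69 FPKM in METTL3-Flox livers (n = 4), with overlapping groups, and 0 of the 12 genes were called in either direction by limma or by voom, while 2 of the 12 (Csf1r and Mertk) were lower at an unadjusted p under 0.05 by limma. Their median log2 fold change of -0.15 turned to 0.06 with scaling to reads on genes. The near-equal means cover a mixed list: 7 genes had a negative log2 fold change, down to -0.83 for Aif1 and -0.68 for Adgre1. The other 5 had a positive one, up to 0.65 for Tyrobp and 0.54 for Fcer1g. Divided by the geometric mean of the 12 in the same liver, 9 of the 10 Kupffer cell genes were lower in every METTL3-HKD than in every METTL3-Flox liver, against 0.925% of tested genes. Before the division, these values were 6 of the 10 and 9.95%. The division puts the spread of the reference, 7.72 to 17.8 FPKM within METTL3-HKD livers, into every gene. The 0.925% is therefore not a like background for genes of macrophages. The ratio of the group means ran from 0.371 for Folr2 to 0.773 for Marco, the gene whose groups overlapped.

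**Figure D3:**
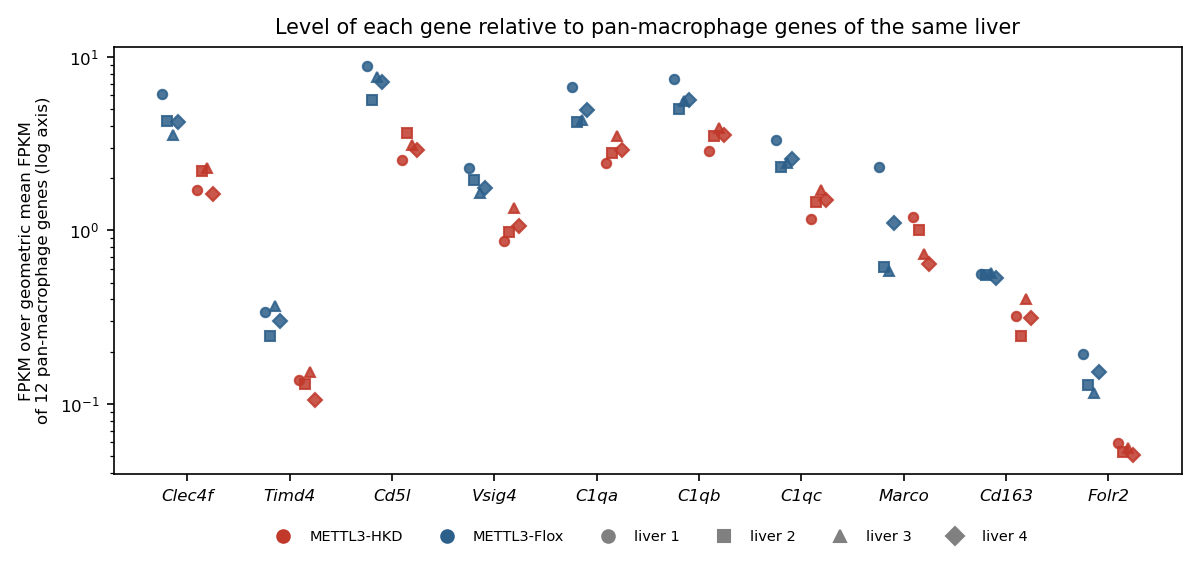
FPKM of each Kupffer cell identity gene divided by the geometric mean FPKM of 12 pan-macrophage genes in the same liver (y axis, log scale), for METTL3-Flox (blue) and METTL3-HKD livers (red), 1 point per liver. For 9 genes all red points lie below all blue points. The colours mix for Marco.

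Cd163 gave the tightest control values on this scale. Its level over the pan-macrophage mean was 0.564, 0.556, 0.571 and 0.530 in METTL3-Flox livers 1 to 4 and 0.323, 0.245, 0.403 and 0.313 in METTL3-HKD livers 1 to 4. Folr2 over the same mean was 0.193, 0.129, 0.116 and 0.152 in METTL3-Flox and 0.0596, 0.0526, 0.0556 and 0.0510 in METTL3-HKD livers. Division by the pan-macrophage mean thus drew the 4 METTL3-HKD livers close together for Folr2, where the FPKM themselves had ranged 2.47-fold. Folr2 rests on only 12 to 33 reads in these livers, so how close they truly are is uncertain. Other genes stayed more spread in METTL3-HKD livers on this scale, such as Clec4f at 1.62 to 2.30 and Marco at 0.644 to 1.20.

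The choice of reference genes changed this count. Tyrobp, Fcer1g and Laptm5 are also expressed by neutrophils and monocytes, so the comparison was repeated, after the data had been seen, with Adgre1 (the F4/80 antigen), Csf1r (the CSF-1 receptor) and Mertk (a receptor tyrosine kinase for dying cells) alone. Their geometric mean was 6.17 ± 2.08 FPKM in METTL3-HKD and 8.81 ± 0.874 FPKM in METTL3-Flox livers (n = 4). Relative to it, 4 of the 10 genes (Clec4f, Timd4, Vsig4 and Folr2) were lower in every METTL3-HKD liver, against 0.336% of tested genes, and the ratios of the group means ran from 0.501 (Folr2) to 1.02 (Marco). The limit on the share of all genes after division holds here too.

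Neutrophil markers, and 5 of 8 monocyte markers, were called in the opposite direction. All 8 neutrophil markers were called higher in METTL3-HKD livers by limma, with a median log2 fold change of 3.95, and their summed level was 333 to 1630 FPKM in METTL3-HKD and 13.1 to 44.9 FPKM in METTL3-Flox livers. For S100a9, a calcium-binding protein of neutrophils, METTL3-HKD livers 1 to 4 had 867, 223, 195 and 326 FPKM, and METTL3-Flox livers 1 to 4 had 20.5, 14.5, 6.55 and 14.0 FPKM. Csf3r, the receptor for the granulocyte growth factor G-CSF, was at 15.1, 7.99, 7.56 and 9.5 FPKM in METTL3-HKD livers and between 0.838 and 1.17 FPKM in METTL3-Flox livers (adjusted p = 0.000511 by limma). Ly6g, the defining surface marker of mouse neutrophils, was listed at 0 in 3 of the 4 METTL3-Flox livers. Of 8 monocyte markers, 5 were called higher (Ccr2, Chil3, Vcan, F13a1 and Itgam) and 0 lower, with a median log2 fold change of 2.03 and a summed level of 33.4 to 122 FPKM in METTL3-HKD against 12.1 to 25.0 FPKM in METTL3-Flox livers. Ly6c2, Plac8 and Cx3cr1 had overlapping groups and were not called, with adjusted p-values by limma of 0.229, 0.93 and 0.421. Whether monocytes or neutrophils carried the RNA of the 5 called markers cannot be told from whole liver. Ccr2, the receptor that brings monocytes into tissue, was at 3.95, 2.10, 1.48 and 1.68 FPKM in METTL3-HKD and at 0.302, 0.696, 0.253 and 0.322 FPKM in METTL3-Flox livers. The part of these cells in the lower level of the Kupffer cell genes was not tested.

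**Figure D4:**
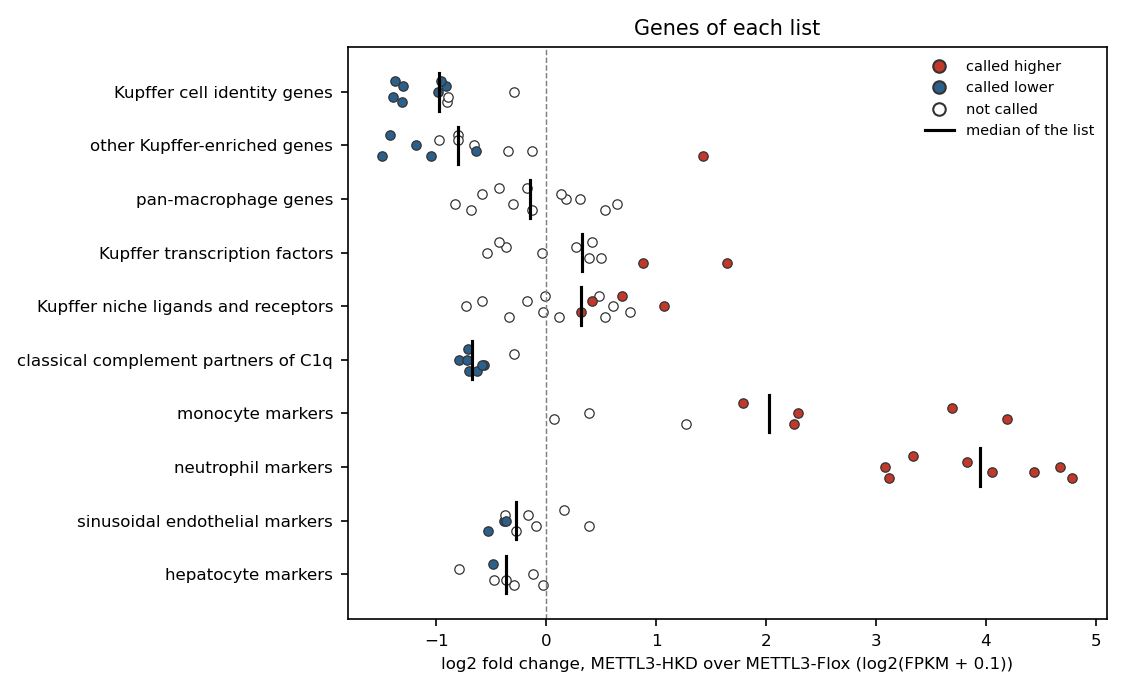
Log2 fold change, METTL3-HKD over METTL3-Flox, on log2(FPKM + 0.1) (x axis) of each tested gene in 10 lists (rows). Filled points passed an adjusted p under 0.05 by limma (red higher, blue lower), open points did not, and the black bar is the median of the list. Kupffer cell identity genes centre on -0.97, pan-macrophage genes on -0.15, and monocyte and neutrophil markers on 2.03 and 3.95.

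Of 12 other genes enriched in Kupffer cells, 5 were called lower and 1 higher, with a median log2 fold change of -0.80. The lower calls fell to 2 without METTL3-HKD liver 1 or METTL3-Flox liver 3, to 3 without METTL3-Flox liver 2 or METTL3-Flox liver 4, and to 3 with scaling to reads on genes, where the median was -0.59. Il18bp, the soluble inhibitor of interleukin-18, was at 6.29, 7.67, 5.12 and 6.06 FPKM in METTL3-HKD livers and at 17.9, 10.9, 17.1 and 12.3 FPKM in METTL3-Flox livers (log2 fold change -1.18, adjusted p = 0.00707 by limma). Slc40a1, the iron exporter ferroportin, was 11.6 ± 1.25 against 18.3 ± 3.46 FPKM (n = 4; adjusted p = 0.0188 by limma). The other genes called lower, named after their values were seen, were C6, Siglec1 and Slc16a9, and Il18bp, Slc40a1 and C6 are also expressed by other liver cells. Hmox1, the heme oxygenase that splits heme taken up from red cells and that stressed cells of many types induce, was the gene called higher, at 57.5 ± 14.8 against 21.2 ± 5.25 FPKM (n = 4; log2 fold change 1.43, adjusted p = 0.00529 by limma).

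Of the 10 transcription factors linked to Kupffer cell identity, 0 were called lower by limma or by voom, and 2 (Nr1h3 and Maf) were lower at an unadjusted p under 0.05 by limma. Id1, a dominant-negative helix-loop-helix factor, was called higher (12 ± 3.99 against 3.81 ± 1.42 FPKM, n = 4, adjusted p = 0.0115 by limma), as was Rbpj, the nuclear mediator of Notch signals (2.23 ± 0.450 against 1.16 ± 0.186 FPKM, adjusted p = 0.0136 by limma). Nr1h3, which encodes LXR-alpha, was at 29.5, 34.5, 43.9 and 39.3 FPKM in METTL3-HKD livers and at 58.9, 43.6, 46.1 and 49.4 FPKM in METTL3-Flox livers, and its adjusted p by limma was 0.0719. With array quality weights, and without METTL3-HKD liver 3 or METTL3-Flox liver 1, 1 factor was called lower, and with a replicate block 1 was called higher. Most of these factors are also expressed outside macrophages.

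Niche genes, the ligands and receptors through which neighbouring cells maintain Kupffer cells, held 4 genes called higher and 0 called lower by limma among 15. At an unadjusted p under 0.05, 2 were lower, and voom called 1 lower. The higher calls fell to 1 without METTL3-HKD liver 1, 2 or 4 or METTL3-Flox liver 3, and to 2 without METTL3-Flox liver 1, 2 or 4, while Csf1 was called in all 18 alternatives. Csf1, the macrophage growth factor, was at 6.00, 6.42, 4.85 and 5.25 FPKM in METTL3-HKD and at 1.92, 3.27, 3.46 and 2.16 FPKM in METTL3-Flox livers (log2 fold change 1.07, adjusted p = 0.0117 by limma). Its receptor gene Csf1r was at 9.99 ± 3.48 in METTL3-HKD and 14.4 ± 2.63 FPKM in METTL3-Flox livers (n = 4), with an adjusted p of 0.14 by limma. Tgfbr1, Tgfbr2 and Smad4 of the TGF-beta pathway were the others called higher, and Gdf2, the BMP9 ligand, had an adjusted p of 0.0511 by limma with 5.60 ± 1.86 against 9.05 ± 1.15 FPKM (n = 4).

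The list of partners of C1q in the classical pathway, which are made mainly by hepatocytes, also held the regulators Serping1, C4bp and Cfi. In METTL3-HKD livers 7 of its 8 genes were called lower (C1ra, C1s1, C2, C4b, Serping1, C4bp and Cfi), against 6.63% of all tested genes, with a median log2 fold change of -0.67. C2, the protease subunit of the C3 convertase, was 5.43 ± 0.337 against 9.44 ± 0.641 FPKM (n = 4; adjusted p = 0.00272 by limma), and C4b was 214 ± 31.3 against 347 ± 25.7 FPKM (n = 4; adjusted p = 0.0108 by limma). C3 was not called. The lower calls fell to 3 without METTL3-Flox liver 3 or with a replicate block, to 4 without METTL3-HKD liver 1 or 2 or METTL3-Flox liver 2, and to 5 with scaling to reads on genes, and C2 and C4b were called in all 18 alternatives.

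Lists built around the tasks of the identity genes held calls in both directions, and the medians of the first 3 turned to 0.06, 0.03 and 0.10 with scaling to reads on genes. Among 15 genes for the uptake of apoptotic cells, the task of TIM-4, 3 were called higher (Tyro3, Itgav and Rac1) and 1 lower (Stab1), with a median log2 fold change of -0.16. Among 9 genes for haemoglobin and heme handling, the task of CD163, Hmox1 was called higher and Slc40a1 lower (median -0.19). Of 11 other scavenger receptors, Olr1 was called higher and Stab1 and Mrc1 lower (median -0.12), and Mrc1, the mannose receptor that sinusoidal endothelium also expresses, was 6.41 ± 0.724 against 10.8 ± 0.730 FPKM (n = 4; adjusted p = 0.00451 by limma). Of 8 LXR target genes, Abca1, the cholesterol exporter, was called higher, and Mylip and Smpdl3a lower (median -0.34). Some of these calls were fragile: of 18 alternatives, Stab1 was called in 6, Abca1 in 6 and Smpdl3a in 5, and scaling to reads on genes left 0 lower calls by limma among the uptake genes and 0 among the heme genes, with 0 and 3 of them lower at an unadjusted p under 0.05, while voom on all 8 livers called 1 lower in each list.

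Markers of other cells that a liver sample can hold were read in the same fit. Of 6 markers of lipid-associated macrophages, Spp1 and Lgals3 were called higher and Fabp5 lower (median 0.81), and of 6 markers of cavity macrophages, which can enter an injured liver from the peritoneum, Serpinb2 was called higher by limma but not by voom (median 0.21), although Gata6, their defining factor, was at 2.31 ± 0.355 and 2.20 ± 0.307 FPKM (n = 4). Of 9 sinusoidal endothelial markers, 3 were called lower (Stab1, Oit3 and Gpr182; median -0.27), which became 0 with scaling to reads on genes (median -0.06) and 1 without METTL3-HKD liver 2 or 4 or any 1 METTL3-Flox liver. Biliary markers had 4 of 5 tested genes called higher (Spp1, Krt19, Krt7 and Sox9; median 1.38), stellate cell markers 1 higher (Des) and 2 lower (Lrat and Hand2) of 8 (median 0.20), hepatocyte markers 1 lower of 7 (Hnf4a; median -0.36), and dendritic cell markers 1 lower of 5 tested (Clec9a; median -0.22). When 1 liver was left out, the biliary calls ranged from 2 to 4, the stellate calls from 0 to 1 higher and 0 to 2 lower, and the calls for hepatocyte, dendritic cell and cavity macrophage markers from 0 to 1. Those for lipid-associated macrophages ranged from 1 to 2 higher and 0 to 1 lower. Of the 3 lymphocyte markers high enough to be tested, 0 were called by limma or voom and 0 had an unadjusted p under 0.05 by limma (median 0.09).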

How the data were processed

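RNA from whole livers of 4 METTL3-HKD and 4 METTL3-Flox mice was sequenced with a SMARTer mRNA-Seq kit, and the groups follow the sample labels. Each of the 8 libraries is labelled as a mouse of its own. The authors deposited FPKM with the gene length used. The submitters' processing notes name the mouse build GRCm38; the aligner, counter, annotation and strand setting are not given in the sources used here. Of the listed genes, 54495 are in GENCODE M21, 98.33% with the same coordinates. FPKM times length gave whole reads (within 0.02 reads) for 100% of non-zero values, from which depth was taken. Precision was judged from the spread between mice.

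Genes averaging 0.1 FPKM or more were compared on log2(FPKM + 0.1) with limma 3.58.1 in R 4.3.3 (lmFit, eBayes with a mean-variance trend), and p-values were adjusted by Benjamini-Hochberg over every gene tested. Fold changes are on this scale and understate those of low genes. Exact permutation tests enumerated 70 arrangements with scipy 1.17.1 in Python 3.11.15. Tested on simulated data, the fit recovered 199 of 200 changed genes. How often it finds fold changes as small as those of the Kupffer cell identity genes, which share their spread between livers, was not tested.

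The members and lists were chosen with earlier results of these data known. The text names all members, Mettl3, genes from each list drawn first from the 2 with the smallest adjusted p in each direction, and the 5 genes most like the members with a mean of at least 1 FPKM. Not every gene this rule allows is named, and further genes named beside the counts of their lists, Ly6g and Gata6 among them, were chosen after their values were seen. Alternatives were another pseudocount, other minimum levels, other scalings, no trend, array weights, a replicate block, voom, a fold threshold and the omission of livers. Promoters came from a RefSeq table. Some single genes of the lists are not reported here and were left out of the list counts.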

Additional observations from a re-analysis of the deposited data

Results flagged for a closer look

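Of 20 groups of 4 livers examined, 1 for each gene and genotype, 2 held a liver far from the other 3. For independent groups, chance gives about 1 in 20. That figure does not apply here, because the genes share their spread between livers and the liver was METTL3-Flox liver 1 in both groups. Clec4f in METTL3-Flox liver 1 was at 103 FPKM, with the next liver at 52.5 FPKM, a gap of 0.871 of the range of the group. Vsig4 in METTL3-Flox liver 1 was at 38.8 FPKM, with the next liver at 22.4 FPKM, a gap of 0.902 of the range. Without this liver, the log2 fold change of Vsig4 was -0.75 (adjusted p = 0.0369 by limma). Clec4f was then no longer called, and 2 of the 10 Kupffer cell identity genes (Folr2 and Vsig4) were called lower, against 6.33% of all tested genes.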

How the results depend on the processing

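The number of Kupffer cell identity genes called lower, 7 of 10 by limma, was 3 with no minimum level, 1 with scaling to reads on genes, 4 without a mean-variance trend, 4 with a fold threshold of log2 1 and 3 without METTL3-HKD liver 1 and METTL3-Flox liver 1, an alternative added after seeing the data. In the same order, the share of all tested genes called lower was 2.64%, 2.24%, 4.48%, 1.52% and 3.68%, against 6.63% where 7 were called. The number of the 10 genes called ranged from 0 to 6 when 1 liver was left out, with shares of 2.13% to 6.89%. Array quality weights called 9, against 8.04% of all tested genes. Voom (7.22%), median-of-ratios scaling (6.64%), a minimum mean of 1 FPKM (10.8%) and a pseudocount of 1 FPKM (6.27%) each called 7. The median-of-ratios factor was 1.01, so that this setting could hardly move a value. Over all genes, 1506 were called higher and 1104 lower; these counts were 782 and 253 with the fold threshold, 2310 and 374 with scaling to reads on genes, 844 and 610 without METTL3-HKD liver 1 and METTL3-Flox liver 1, and, lower only, 682 with no minimum. Leaving out 1 liver gave 747 to 1659 higher and 355 to 1148 lower. The number of genes of the other lists called, 55, ranged from 28 to 53 when 1 liver was left out. Non-overlapping groups fell from 6 to 2 of 10 genes with scaling to reads on genes, and relative to macrophage genes from 9 to 4 with Adgre1, Csf1r and Mertk as reference. The log2 fold change of Marco was reversed without METTL3-HKD liver 3 (0.01) and METTL3-Flox liver 1 (0.24), with a range of -0.63 to 0.24 when 1 liver was left out, and that of Mettl3 with scaling to reads on genes (0.05). The cause of these shifts was not tested beyond what fewer livers or more genes tested imply.

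The replicate numbers 1 to 4 occur in both genotypes, but no source says that they mark a litter, batch or day. Deviations from the group means in livers of the same number correlated with r = 0.14, -0.16, -0.043 and -0.104, so the numbers were not taken as pairs. With a replicate block, 5 of the 10 Kupffer cell identity genes were called lower, and over all genes 971 were called higher and 645 lower (3.88% of all tested genes).

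Low levels limit Folr2 most, with 12 reads in its lowest liver.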
